A study of Mus musculus with 18 samples.

Results

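The enzymes that build, lengthen and cap the sugar chains of glycoproteins and glycolipids were followed in the mouse ileum from suckling to after weaning. The set held 82 genes of the 18194 genes measured by a probe set with a single gene symbol. They were chosen by name alone: every symbol made of B3gnt, B3galt, B4galt, B4galnt, St3gal, St6gal (St6galnac included), St8sia, Fut, Galnt, Mgat or Gcnt and a number. The naming rule uses no measured value. They were placed in classes by symbol, called enzymatic steps here after the usual step of each family. The classes held 20 genes of sialylation, 9 of fucosylation, 16 of O-glycan initiation, 5 of O-glycan core and branching, 10 of N-glycan branching and 22 of chain elongation. The last class took every B3gnt, B3galt, B4galt and B4galnt gene but B3gnt6. It therefore also holds enzymes of other steps, such as the ganglioside enzyme B4galnt1 and B4galnt2, which makes the Sda antigen.

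The tissue came from the inbred strain C57BL/6 at postnatal days 4, 7, 9, 11, 24 and 32, with 3 individual mice and hence 3 arrays per age (18 arrays in all). The titles of a day 7 sample and a day 9 sample share an animal number, and they were counted as separate mice. No genetic change or treatment is named for any age, and the labels give no sex, litter, diet or batch. Each piece held the full thickness of the ileum, the last stretch of the small intestine, and the RNA is that of the lining, the muscle wall, nerves, vessels and immune cells together. Days 4 to 11 are called before weaning (12 arrays) and days 24 and 32 after weaning (6 arrays). The study asked how expression in the small intestine moves from one stage to the other.

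Glycan chains are made in the Golgi, one sugar at a time, by enzymes that each join one sugar to one kind of acceptor. In the gut the mucin-type O-glycans start with an N-acetylgalactosamine placed on the protein by the Galnt family, are then built into cores, lengthened by alternating galactose and N-acetylglucosamine, and closed by sialic acid or fucose. In rodents the intestinal surface is known to be rich in sialic acid during suckling and rich in fucose after weaning.

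Values are log2 expression levels made with RMA, a method that summarises the short probes of each transcript after background correction. A difference of 1 on this scale is a 2-fold change. Where a gene had several probe sets, the one whose 18 values had the highest mean stood for it, and levels of different genes were not compared, since each probe set binds with its own strength. Array medians lay between 3.88 and 3.97, and a level near them cannot be separated from background. Of the 82 genes, 42 reached log2 6 on at least 3 arrays, and 24 did so on all arrays. The genes that reached it included 6 that did so only through the arrays after weaning and 3 only through those before. There were 14 genes at or below the array's median on every array: B3galt1, B3galt2, B3gnt4, Fut1, Fut9, Galnt9, Galnt13, Galnt14, Gcnt7, Mgat4d, Mgat4e, Mgat5b, St6gal2 and St8sia1. All 82 were tested, with no filter on low values. Tests are limma's moderated tests from 1 fit over all 18 arrays, adjusted over all 18194 genes by Benjamini-Hochberg, and a gene was called below 0.05. Errors of differences are standard errors (SE) from that fit.

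Several measures of the arrays moved with the stage. The hybridization controls, RNAs added just before hybridization, read higher on 10 arrays, namely all 6 after weaning and 4 of the 12 before. Even so, every array after weaning (9.48 to 9.83) lay above every array before it (8.52 to 9.41), so that restricting a fit to these 10 arrays does not level the control between stages. The poly-A controls, added to the RNA earlier, also lay fully apart, at 3.53 to 4.51 before and 4.98 to 6.37 after weaning. The 18S ribosomal probe sets averaged 10.26 to 10.85 at day 24, 7.01 to 7.96 at day 32 and 4.93 to 8.19 before weaning. Low Xist, the pattern of males, was seen in 3 of the 12 suckling mice and 5 of the 6 older ones. The summed level of 9 goblet cell markers rose from 13.44 to 13.8 before weaning to 14.73 to 15.25 after, with all 9 called higher, and that of 10 epithelial markers rose from 14.26 to 14.46 to 14.93 to 15.25 (7 higher, 3 lower). All 5 Paneth cell markers measured were called higher, with summed levels of 9.57 to 11.17 before and 14.12 to 14.44 after weaning. All 6 fibroblast markers were lower (13.37 to 13.98 before, 12.3 to 12.98 after), as were all 4 of endothelium (7.71 to 8.06, then 6.68 to 6.88) and 4 of 5 of neurons and glia (8.1 to 8.59, then 6.92 to 7.34). Of 6 macrophage and dendritic cell markers 2 were lower and 1 higher (11.57 to 11.75, then 9.56 to 9.99). That sum is led by its brightest marker, Csf1r (means 11.4, then 8.51). C1qa (7.33, then 7.39), C1qb (7.63, then 7.76) and Adgre1 (5.33, then 5.21) moved little. Of 4 hepatocyte markers 2 were lower and 1 higher (11.74 to 12.71, then 6.43 to 7.27), a sum led by Ttr (12.21, then 6.11), while Alb was at or below the array medians throughout. Of 4 adipocyte markers 3 were higher and 1 lower (9.44 to 10.22, then 9.83 to 11.37). In RNA of whole tissue, fewer cells of a type and less RNA per cell cannot be told apart. The part of these shifts in the results that follow was not tested, except where a value is given.

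Across the 6 ages, limma's F test called 49 of the 82 genes, beside 46.9% of all genes. Between the stages, 36 genes rose (43.9%) and 18 fell (22.0%), beside 28.9% and 27.5% of all genes. The median difference was 0.17 over the 82 genes and 0.04 over all genes. A change of at least 2-fold was seen for 17 of the genes that rose and 4 of those that fell. The share of all genes that passed this size was not counted, so these 2-fold counts have no comparison. By step, chain elongation had 15 of 22 genes higher and 2 lower, O-glycan core and branching 3 of 5 higher and 1 lower, and fucosylation 6 of 9 higher and 2 lower. Sialylation went the other way, with 2 of 20 genes higher and 8 lower. Of those lower, St3gal2, St8sia1 and St6galnac2 were not called with probe sets averaged, nor on the arrays with higher hybridization controls alone. With probe sets averaged, St8sia2 was called lower and St6galnac1 higher in addition. Centring the arrays on their medians moved the median of all genes from 0.04 to 0.16 and the calls over all genes from 5249 higher and 4999 lower to 8393 and 4029. Of the 82 genes, 51 were then higher and 16 lower. On the 10 arrays with higher hybridization controls alone, 30 rose and 14 fell (36.6% and 17.1%), beside 18.8% and 20.3% of all genes in that fit.

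**Figure D1:**
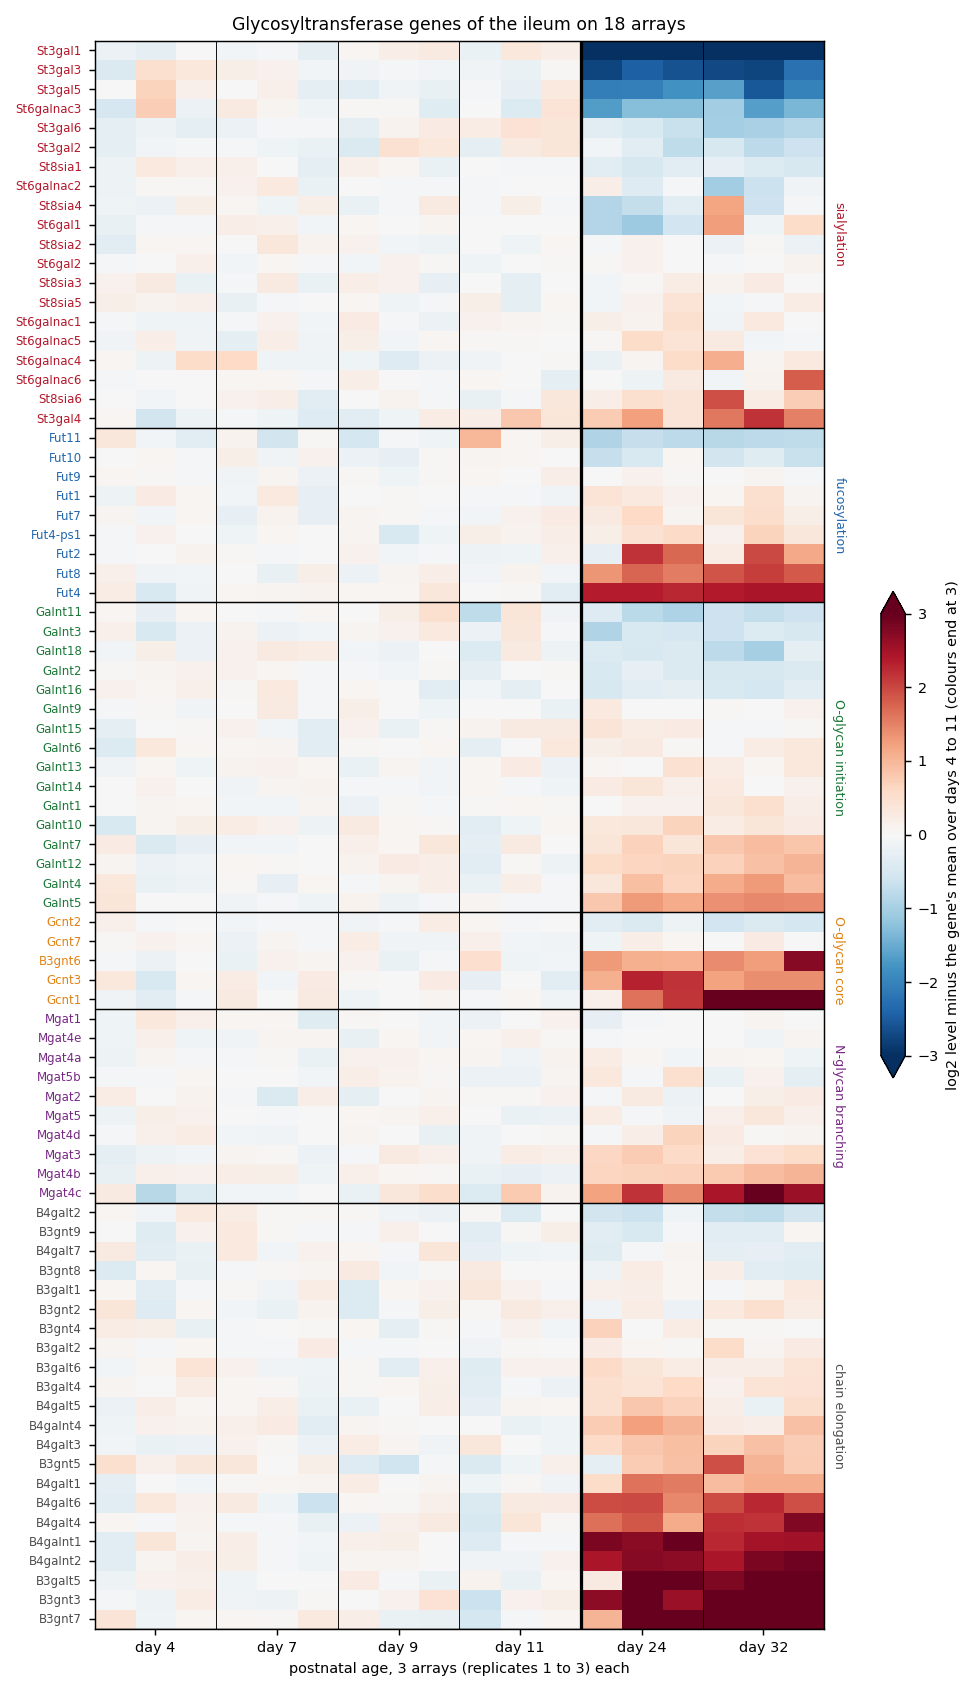
Level of each of the 82 genes on the 18 arrays, as the log2 difference from the gene's mean over days 4 to 11; rows are grouped by enzymatic step and ordered by the difference between stages, columns are the 3 mice of each age, and the thick line lies between days 11 and 24. The columns of days 4 to 11 are pale throughout, and the darkest rows after weaning are St3gal1 (blue) and B3gnt7, B3gnt3, B3galt5, B4galnt2 and B4galnt1 (red).

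Most calls lay between day 11 and day 24. Within suckling, from day 4 to day 11, 1 of the 82 genes was called higher and 0 lower, beside 0.610% and 0.731% of all genes. From day 11 to day 24, 28 genes rose (34.1%) and 11 fell (13.4%), beside 20.0% and 19.4% of all genes. The largest falls of that step were those of St3gal1 (-4.59), St3gal3 (-2.52), St3gal5 (-1.98) and St6galnac3 (-1.41), and the largest rises those of B3gnt7 (3.12), B3galt5 (3.00), B4galnt1 (2.99) and B3gnt3 (2.87). From day 24 to day 32, 5 genes rose and 1 fell (6.1% and 1.22%), beside 3.04% and 3.48% of all genes. The 13 days between day 11 and day 24 held no sample, so the order of events inside them was not measured.

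Sialic acid is placed by St3gal enzymes in an α2,3 link to galactose, by St6gal enzymes in an α2,6 link to galactose, by St6galnac enzymes in an α2,6 link to N-acetylgalactosamine, and by St8sia enzymes onto another sialic acid. St3gal1, which caps the core 1 disaccharide of O-glycans, fell more than any other of the 82 genes. It read 9.83 to 10.45 (median 10.1) on the 12 arrays before weaning. The day 24 mice read 6.23, 5.55 and 5.18, and the day 32 mice 5.23, 4.95 and 5.07. The groups lay far apart, and the highest value after weaning was that of day 24 replicate 1. The difference was -4.76 ± 0.12 (SE; 95% interval -5.01 to -4.51), which is 27.1-fold lower (limma, adjusted p = 8.07e-17). The second St3gal1 probe set, with a mean of 3.71 near the array medians, moved by -0.18, and the mean of both gave -2.47. On the 10 arrays with higher hybridization controls alone St3gal1 fell by 4.53.

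St3gal3, which caps galactose on type 1 and type 2 chains, read 8.07 to 8.98 (median 8.45) before weaning. It read 5.75, 6.06 and 5.89 at day 24 and 5.81, 5.75 and 6.28 at day 32, again with no overlap. The difference was -2.59 ± 0.11 (SE), 6.03-fold lower (limma, adjusted p = 3.99e-13). St3gal5, the GM3 synthase that starts most gangliosides, read 7.22 to 8.21 before weaning, 5.47, 5.51 and 5.74 at day 24 and 5.91, 5.0 and 5.52 at day 32. Its difference was -2.03 ± 0.13 (SE), and its second probe set gave -3.56. St6galnac3, which adds a second sialic acid to sialylated chains, read 4.52 to 5.76 before and 3.34 to 3.97 after weaning, a difference of -1.38 ± 0.16 (SE) on its brightest probe set and of -0.67 with the mean of its probe sets.

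The sequences upstream of St3gal3 and St3gal5 are shown because these were the sialyltransferases that fell at least 4-fold and had a single start in the promoter table of RefSeq (build GRCm38.p6). The table held 84 windows for 59 of the 82 genes. St3gal1 was among the genes with none. Each window is the 250 bases before the start of 1 annotated transcript, on the strand of the gene. The gene table of the same build reaches further upstream for both genes, so that 26 bases of the St3gal3 window and 56 of the St3gal5 window lie inside the gene, and only the bases outside it are printed (224 and 194). Capitals mark the letters CCAAT or, read from the other strand, ATTGG, the box bound by NF-Y.
St3gal3 (chr4:118134973-118135196, minus strand): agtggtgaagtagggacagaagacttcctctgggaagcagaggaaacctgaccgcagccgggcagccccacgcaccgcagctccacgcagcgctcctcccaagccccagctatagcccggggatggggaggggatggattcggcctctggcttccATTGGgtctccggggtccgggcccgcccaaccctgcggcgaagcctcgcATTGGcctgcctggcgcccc
St3gal5 (chr6:72097358-72097551, plus strand): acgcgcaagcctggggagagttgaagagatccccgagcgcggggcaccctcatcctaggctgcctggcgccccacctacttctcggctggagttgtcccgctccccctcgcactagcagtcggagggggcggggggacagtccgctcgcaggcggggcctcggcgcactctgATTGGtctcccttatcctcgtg
The printed part of St3gal3 held the box 2 times, with its first base 95 and 46 bases before the start, and that of St3gal5 held it once, 78 bases before. Over all 32851 windows 33.8% held it, and over the 84 windows of the set 31.0% did, 35.3% of the 17 windows of genes that fell and 25.0% of the 36 of genes that rose. GC content of the whole window was 68.4% for St3gal3 and 71.6% for St3gal5, beside a median of 52.4% over all windows and 59.2% over those of the set.

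St3gal6, another enzyme of galactose ends, rose during suckling and fell afterwards. It read 6.86, 7.0 and 6.86 at day 4, 7.39, 7.59 and 7.53 at day 11, 6.84, 6.71 and 6.49 at day 24, and 6.13, 6.19 and 6.31 at day 32. The rise from day 4 to day 11 was 0.60 ± 0.13 (SE), the only one called among the 82 genes in that step (limma, adjusted p = 0.0235). The fall from day 11 to day 24 was -0.82 ± 0.13 (SE) and that from day 24 to day 32 was -0.47 ± 0.13 (SE; adjusted p = 0.0338). The rise and the last fall each lost the call in 8 of the refits, and the fall of day 32 also missed the 1.5-fold minimum. Among the refits were leaving out day 4 replicate 1, 2 or 3 or day 11 replicate 2 or 3 for the first, and day 24 replicate 1 or 2 or day 32 replicate 1 or 2 for the second. With an array left out the rise was 0.56 to 0.66 and the fall -0.57 to -0.39, with an adjusted p of up to 0.105 and 0.109. Over all alternatives it reached 0.48 and 0.111, and with the mean of the probe sets the rise was 0.17 and the fall -0.24. The 5 probe sets of St3gal6 gave differences between stages of -1.06 to 0.16, and the one described here gave -0.72. Smaller falls between stages were called for St3gal2 (-0.50), St8sia1 (-0.38) and St6galnac2 (-0.33). With probe sets of a gene averaged these were -0.13, -0.08 and -0.08 and not called (limma, adjusted p = 0.0716, 0.236 and 0.394), and St3gal6 gave -0.33, called. St6galnac2 lost its call without day 24 replicate 2 and without day 32 replicate 1, with -0.22 as the smallest difference and an adjusted p of up to 0.0784.

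St3gal4, which caps type 2 lactosamine ends, was the sialyltransferase that rose most. It read 8.89 to 10.26 (median 9.35) before weaning, with the highest of these values at day 11. The day 24 mice read 10.21, 10.68 and 9.83, partly inside that range, and the day 32 mice 11.03, 11.6 and 10.96, all above it. The difference between stages was 1.28 ± 0.14 (SE; limma, adjusted p = 1.96e-07). The step from day 24 to day 32 was 0.96 ± 0.23 (SE; limma, adjusted p = 0.0157) and lost its call without day 24 replicate 3 or day 32 replicate 2 (0.75 at the lowest, adjusted p up to 0.0903). St8sia6, which adds a sialic acid to sialylated O-glycans, rose by 0.66 ± 0.17 (SE), from 2.71 to 3.39 before weaning to 3.25, 3.53 and 3.45 at day 24 and 5.0, 3.29 and 3.79 at day 32. These levels were close to the array medians except in day 32 replicate 1, without which the rise was 0.41 (limma, adjusted p = 0.00325). With the mean of probe sets it was 0.33.

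St6gal1, the main α2,6-sialyltransferase of N-glycans and abundant in B cells and plasma cells, dipped and then rose. It read 6.28 to 6.71 (median 6.5) before weaning, 5.62, 5.41 and 5.94 at day 24, and 7.77, 6.39 and 7.05 at day 32. All 3 mice of day 24 lay below every mouse of the suckling ages, and 2 of the 3 mice of day 32 lay above them. The fall from day 11 to day 24 was -0.84 ± 0.22 (SE; limma, adjusted p = 0.00499) and the rise from day 24 to day 32 was 1.41 ± 0.22 (SE; limma, adjusted p = 0.00064). The fall lost its call on the arrays with higher hybridization controls alone (adjusted p = 0.186), and the rise in a fit of those ages alone (adjusted p = 0.0539). Between stages the difference was -0.15 ± 0.14 (SE) and not called, but without day 32 replicate 1 it was -0.32 and called (limma, adjusted p = 0.0104). The summed level of the 6 measured markers of B and plasma cells was 6.44 to 6.85 before weaning, 10.0 to 11.14 at day 24 and 13.32 to 13.58 at day 32; of 7 T cell markers it was 7.59 to 7.89, 7.98 to 8.23 and 8.72 to 9.79. Within day 32, replicate 1 stood apart in markers of B cells: Cd79a read 8.03 there and 4.3 and 4.48 in the other two mice, Cd79b read 8.69 against 4.57 and 4.75, and Ms4a1 read 8.37 against 3.08 and 3.26. It was also highest in T cell markers, with Gzma at 8.48 against 6.72 and 7.34 and Gzmb at 7.98 against 6.35 and 6.36. Cd3g read 5.51 there against 4.86 and 4.16, while Zap70 was not highest in this mouse. St6gal1, St8sia4, St8sia6, Gcnt1 and B3gnt5 (6.17 against 5.26 and 4.98) were among the genes highest in the same mouse. The part of B, T or other cells in the values of these genes was not tested.

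Of the sialyltransferases, 10 were not called between stages. Besides St6gal1 these were St8sia2, St8sia3, St8sia4, St8sia5, St6gal2, St6galnac1, St6galnac4, St6galnac5 and St6galnac6. St6galnac1, which makes the sialyl-Tn antigen on mucins, read 3.46 to 3.89 before and 3.54 to 4.13 after weaning, with a difference of 0.16 (95% interval -0.003 to 0.331). It was called under 5 alternatives, among them the mean of probe sets (0.21, limma, adjusted p = 0.00593). St8sia2 gave -0.04 on its brightest probe set and -0.31, called, with the mean of probe sets (limma, adjusted p = 0.000114). St8sia4, a polysialyltransferase, read 5.58 to 6.05 before weaning and 4.91 to 6.96 after, with the highest value in day 32 replicate 1. Without that array St8sia4 gave -0.49 and was called (limma, adjusted p = 0.000963). St6galnac6 read 6.06 to 6.52 before weaning and stayed between 6.18 and 6.61 after it on all arrays but day 32 replicate 3, where it read 8.15. Without day 32 replicate 1 it gave 0.50 and was called (limma, adjusted p = 0.0207).

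**Figure D2:**
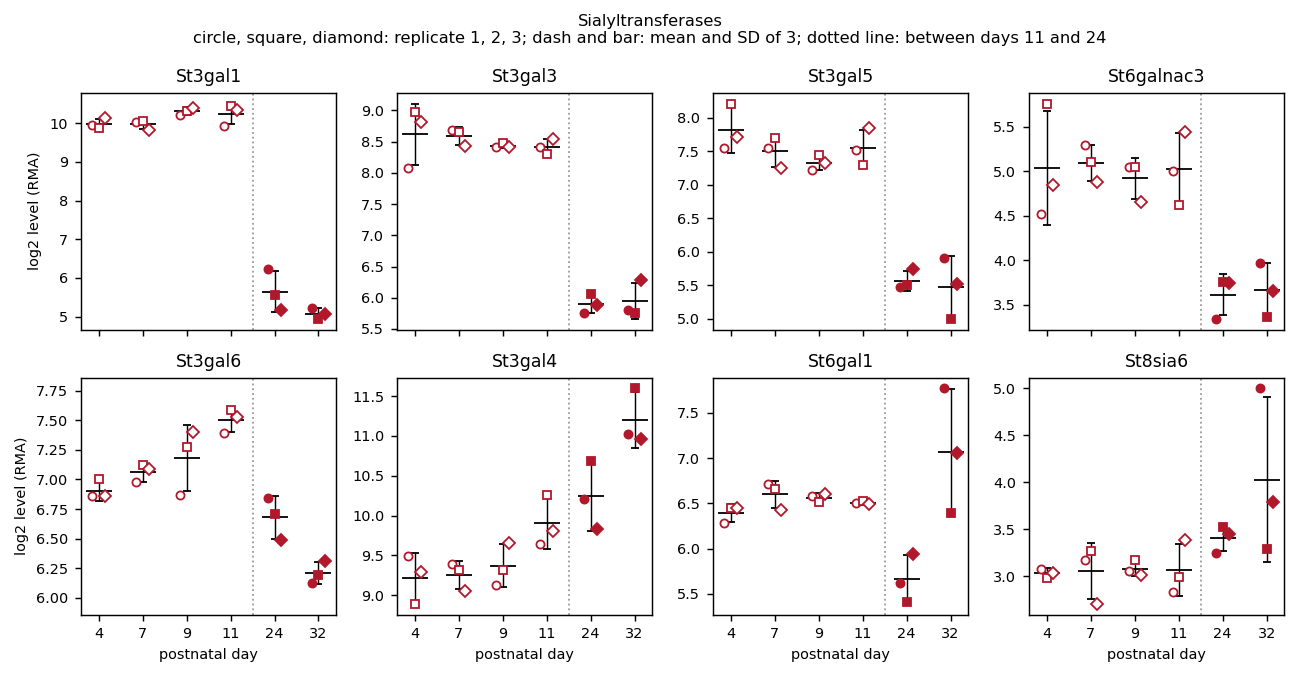
Log2 level (vertical axes, each panel with its own range) of 8 sialyltransferases against postnatal day; points are single mice, open before and filled after weaning, and dashes with bars are the mean and SD of 3. St3gal1, St3gal3, St3gal5 and St6galnac3 fall between days 11 and 24 with no overlap, St3gal4 is highest at day 32, and St6gal1 is lowest at day 24 and highest, with a wide spread, at day 32.

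Fucose is placed in an α1,2 link by Fut1 and Fut2, in an α1,3 link by Fut4, Fut7 and Fut9, and in an α1,6 link to the base of N-glycans by Fut8. Fut4, which makes the Lewis x structure, rose in every mouse after weaning. It read 3.72 to 4.51 (median 4.24) before weaning, 6.54, 6.54 and 6.43 at day 24 and 6.56, 6.63 and 6.64 at day 32. The difference was 2.37 ± 0.09 (SE), 5.18-fold higher (limma, adjusted p = 2.55e-14), from a suckling level near the array medians. The second Fut4 probe set, with a mean of 3.29, moved by 1.08, and the mean of both gave 1.73, called. Fut8, the core fucosyltransferase, read 6.15 to 6.59 before weaning, 7.71, 8.13 and 7.92 at day 24 and 8.26, 8.45 and 8.22 at day 32. Its difference was 1.74 ± 0.08 (SE), and the groups did not overlap. The other 2 probe sets of Fut8, with means of 4.75 and 2.68, moved by 0.45 and 0.53, and the mean of the 3 gave 0.90, called.

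Fut2, the secretor enzyme whose product is known from the weaned mouse gut, rose in part of the mice only. It read 3.73 to 4.04 (median 3.86) on all 12 arrays before weaning, a level at the array medians. At day 24 replicate 1 read 3.63 while the other two mice read 6.04 and 5.6, and at day 32 the mice read 4.1, 5.85 and 5.02. One mouse of each age after weaning thus lay at most 0.1 outside the suckling range, and the other 4 lay at least 0.98 above its highest value. The difference was 1.16 ± 0.27 (SE; 95% interval 0.61 to 1.72; limma, adjusted p = 0.00101). It was 0.73 and called with the mean of probe sets, 1.53 without day 24 replicate 1, and 1.22 and not called (adjusted p = 0.0631) on the arrays with higher hybridization controls. Its step from day 11 to day 24, 1.25 ± 0.43 (SE; limma, adjusted p = 0.0279), lost the call under 8 alternatives, with 0.78 as the lowest value when 1 array was left out and 0.175 as the highest adjusted p. The alternatives that ended it included leaving out day 11 replicate 1 or 2 and day 24 replicate 2 or 3.

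Fut11 fell by 0.80 ± 0.14 (SE) and Fut10 fell by 0.45 ± 0.09 (SE). Fut11 read 4.83 to 6.39 before weaning, with the highest value in day 11 replicate 1, and 4.48 to 4.7 after it. Its other 2 probe sets moved by -0.18 and -0.05. With the mean of probe sets Fut11 gave -0.34 and Fut10 gave -0.19, both called. Small rises were called for Fut7 (0.33), the pseudogene Fut4-ps1 (0.39), whose probe set may also bind Fut4 transcripts, and Fut1 (0.24 ± 0.09 SE, adjusted p = 0.024). Fut1 and Fut7 lay near the array medians, and Fut1 was not called without day 24 replicate 1 or without day 32 replicate 2 (adjusted p = 0.0655 and 0.101). Fut9 stayed at 2.18 to 2.55 on all arrays and was not called.

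Mucin O-glycans are built from a core. C1galt1 and its chaperone C1galt1c1 make core 1, B3gnt6 makes core 3, and Gcnt1 and Gcnt3 add the branch of core 2, Gcnt3 also that of core 4. Gcnt1, the core 2 enzyme of many leukocytes and epithelia, rose in steps. It read 2.84 to 3.43 (median 3.12) before weaning, below every array's median, then 3.3, 4.78 and 5.3 at day 24 and 7.36, 6.77 and 6.56 at day 32. Day 24 replicate 1 lay inside the suckling range and all mice of day 32 lay above those of day 24. The rise between stages was 2.53 ± 0.20 (SE; limma, adjusted p = 1.99e-09). The second Gcnt1 probe set, with a mean of 3.11, moved by 0.69, and the mean of both gave 1.61. The step from day 24 to day 32 was 2.43 ± 0.32 (SE; limma, adjusted p = 0.000103), the largest among the 82 genes. Over the same step the plasma cell markers Igha, Jchain and Mzb1 rose by 2.83, 3.54 and 1.62. The B cell markers Cd79a (0.04), Cd79b (0.05) and Ms4a1 (-0.26) were not called, with a wide spread at day 32 (Ms4a1 8.37, 3.08 and 3.26). Of 7 T cell markers 4 were called higher in that step. Means of days 24 and 32 were 5.03 and 7.51 for Gzma and 4.3 and 6.9 for Gzmb. The part of any of these cells in the step of Gcnt1 was not tested.

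Gcnt3, the mucin-type branching enzyme of the gut, read 5.98 to 6.74 before weaning, 7.5, 8.73 and 8.6 at day 24 and 7.64, 7.82 and 7.82 at day 32. The difference was 1.59 ± 0.15 (SE), and its other 2 probe sets gave 2.08 and 1.04. B3gnt6 read 2.56 to 3.28 before weaning and 3.82 to 4.18 after it except in day 32 replicate 3, which read 5.51. Its rise of 1.47 ± 0.16 (SE) therefore ran from below the array medians to levels close to them, except in that mouse. Gcnt2, the I-branching enzyme, fell by 0.41 ± 0.06 (SE), but its 8 probe sets gave differences from -1.09 to 0.28, and their mean gave -0.19. Gcnt7 was not called and lay below the array medians.

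**Figure D3:**
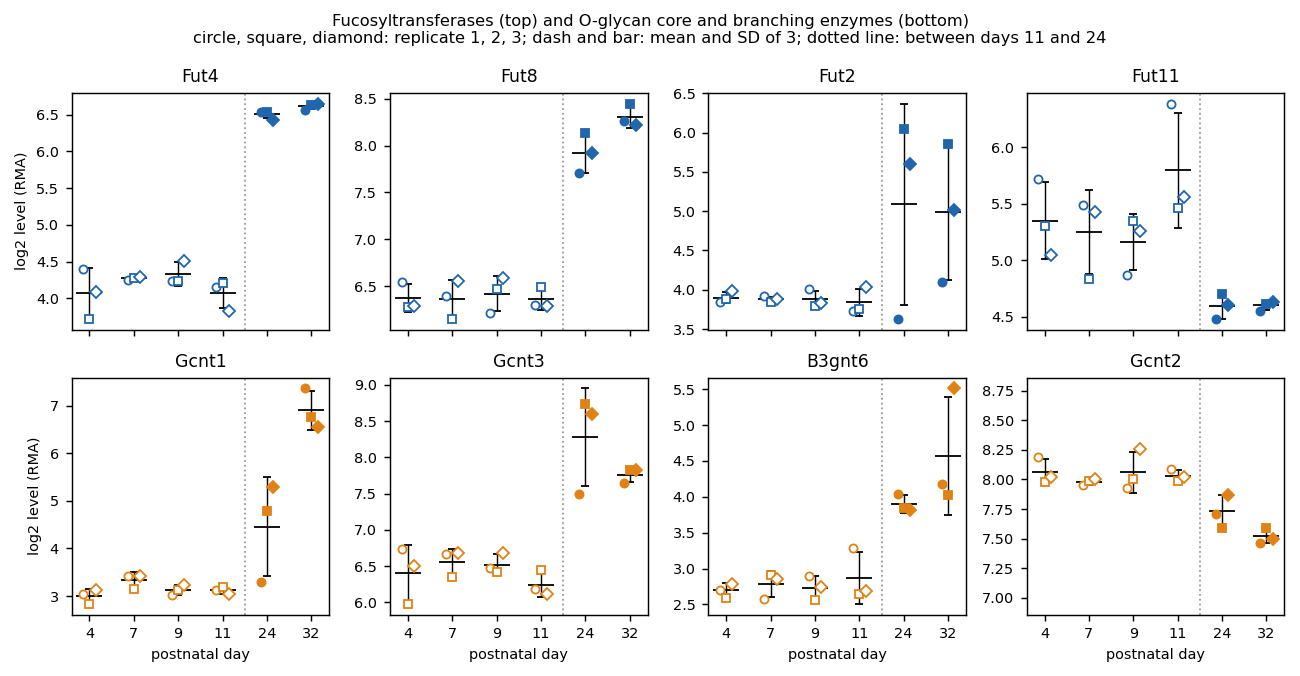
Log2 level of 4 fucosyltransferases (top row) and 4 O-glycan core and branching enzymes (bottom row) against postnatal day, drawn as single mice with the mean and SD of 3, each panel with its own range. Fut4 and Fut8 separate fully, while the circle of day 24 (replicate 1) lies at the suckling level for Fut2 and Gcnt1, and Gcnt1 reaches 6.56 to 7.36 at day 32.

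Of the 16 Galnt genes, which place the first sugar, 7 rose (43.8%) and 5 fell (31.2%), beside 28.9% and 27.5% of all genes, with a median difference of 0.17. Galnt5 read 3.13 to 3.65 before weaning, 4.09, 4.56 and 4.4 at day 24 and 4.64, 4.73 and 4.69 at day 32. This was a rise of 1.24 ± 0.08 (SE, limma, adjusted p = 7.12e-11), from a suckling level below the array medians. Galnt4, which acts on peptides that already carry a sugar, rose by 0.87 ± 0.10 (SE), from 8.03 to 8.58 before to 8.61 to 9.55 after weaning. Galnt12, known from the digestive tract, rose by 0.75 ± 0.07 (SE), from 7.33 to 7.89 to 8.2 to 8.67. Galnt7 rose by 0.67 ± 0.10 (SE) on its brightest probe set. The other 2 Galnt7 probe sets moved by -0.04 and -0.07, and the mean of the 3 gave 0.19, not called (limma, adjusted p = 0.201). Its step from day 11 to day 24 was 0.48 on the brightest and -0.43, not called, on the mean of the 3. Smaller rises were called for Galnt10 (0.37), Galnt1 (0.22) and Galnt14 (0.20).

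The Galnt genes that fell were Galnt11 (-0.68), Galnt3 (-0.56), Galnt18 (-0.56), Galnt2 (-0.42) and Galnt16 (-0.40), none with fully separate groups. Galnt3 read 8.26 to 9.06 before weaning and 7.81 to 8.3 after it. Galnt6, Galnt9, Galnt13 and Galnt15 were not called. With the mean of probe sets Galnt2 gave -0.72, Galnt10 0.74, Galnt11 -0.29 and Galnt3 -0.25, all called. In the same setting Galnt1 gave 0.16, not called (limma, adjusted p = 0.0855), and Galnt6 gave 0.27, called (limma, adjusted p = 0.0172). On the arrays with higher hybridization controls alone, the small rises of Galnt1 (0.17) and Galnt14 (0.12) were not called. On the probe sets used, Galnt5 was the only one of the 16 genes that changed by 2-fold or more, from a level below the array medians. Dimmer probe sets passed that size for Galnt2 (-1.19, at a mean of 7.25) and Galnt4 (1.37, at a mean of 6.11).

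The class of chain elongation gave the largest rises. B3gnt7, which extends lactosamine chains, including those of keratan sulphate, read 3.44 to 4.34 (median 4.01) before weaning. It read 4.98, 7.89 and 7.83 at day 24 and 7.53, 7.83 and 8.28 at day 32. Day 24 replicate 1 stood between the stages, and the other 5 mice lay at least 3.19 above the suckling range. The difference was 3.43 ± 0.30 (SE), 10.8-fold higher (limma, adjusted p = 1.04e-08), and 3.91 without day 24 replicate 1. The suckling level of B3gnt7 lay near the array medians. B3gnt3, which extends core 1 O-glycans, read 3.99 to 5.07 before weaning, 7.31, 7.62 and 7.22 at day 24 and 7.76, 8.29 and 7.72 at day 32, with no array between the groups. Its difference was 3.02 ± 0.12 (SE), 8.1-fold higher (limma, adjusted p = 1.18e-13).

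The window of B3gnt7 is shown as that of the largest rise. It lies outside the gene in the gene table. Capitals mark AGATAA, letters bound by GATA factors.
B3gnt7 (chr1:86302971-86303220, plus strand): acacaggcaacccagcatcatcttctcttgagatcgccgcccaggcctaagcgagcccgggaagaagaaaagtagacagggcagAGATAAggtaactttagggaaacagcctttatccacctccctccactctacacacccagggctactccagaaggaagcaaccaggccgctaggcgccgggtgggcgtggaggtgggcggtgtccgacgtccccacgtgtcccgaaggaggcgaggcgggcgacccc
The AGATAA letters began 166 bases before the start. On either strand 9.99% of all windows, 9.52% of the windows of the set and 16.7% of the 36 windows of genes that rose held them. The letters GTTAAT (a part of the HNF1 site), TTTATNG (CDX), CAAAGTC (a part of the HNF4 site), GAAAGTG (PRDM1) and TATAAA (the TATA box, which can overlap TTTATNG) were also searched on both strands and were not found in the 3 sequences shown. TATAAA was held by 2.38% of the windows of the set and 12.4% of all windows. A match is a description of letters and does not show binding.

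B3galt5, which makes type 1 chains, read 3.29 to 3.74 (median 3.5) before weaning, below the array medians. Day 24 replicate 1 read 3.75, just at that range, while the other two mice read 8.09 and 7.57, the highest of all ages. The day 32 mice read 6.28, 6.74 and 6.48. The difference between stages was 3.00 ± 0.40 (SE; 95% interval 2.15 to 3.84; limma, adjusted p = 3.51e-06) and 3.68 without day 24 replicate 1. The mean of its 4 probe sets gave 1.42.

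B4galnt2, which makes the Sda antigen and the sugar read by a lectin on mouse gut epithelium, rose evenly. It read 7.95 to 8.46 before weaning, 10.72, 10.98 and 10.94 at day 24 and 10.71, 11.09 and 11.17 at day 32. The difference was 2.67 ± 0.09 (SE), 6.36-fold higher, with the lowest adjusted p of a rise among the 82 genes (limma, 5.41e-15). B4galnt1, the GM2 synthase of the gangliosides, read 5.97 to 6.72 before weaning, 9.19, 9.07 and 9.32 at day 24 and 8.63, 8.86 and 8.87 at day 32. It rose by 2.63 ± 0.09 (SE; second probe set, at a mean of 2.98, 0.38; mean of both 1.5), while St3gal5, which makes its GM3 substrate, fell in the same mice. B4galt4 rose by 1.97 ± 0.13 (SE), from 4.35 to 5.18 before weaning to 6.47, 6.68 and 5.93 at day 24 and 7.04, 6.98 and 7.6 at day 32. Its step from day 24 to day 32, 0.84 ± 0.21 (SE; limma, adjusted p = 0.0214), was not called without day 24 replicate 3 or day 32 replicate 3 (0.63 at the lowest, adjusted p up to 0.118).

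B4galt1, the main enzyme adding galactose to N-acetylglucosamine, read 7.59 to 8.07 before weaning, 8.41, 9.47 and 9.4 at day 24 and 8.78, 8.93 and 8.94 at day 32. Its rise was 1.14 ± 0.12 (SE). B4galt6 and B4galt5, both lactosylceramide synthases, rose by 1.93 and 0.41, and B3gnt5, which starts the lacto-series of glycolipids, rose by 0.84. Further rises of B4galt3 (0.76), B4galnt4 (0.72), B3galt4 (0.41), B3galt6 (0.32) and B3galt2 (0.20) were called. With the mean of probe sets B3gnt5 gave 0.47, B4galt3 0.36 and B4galt2 -0.33, all called, and B3galt6 gave 0.12, not called. B4galt2 fell by 0.55, and B3gnt9 fell by 0.24, a call that was lost under 17 alternatives, 12 of them an array left out (adjusted p up to 0.127). The call of B3galt2 was lost without day 24 replicate 1 or day 32 replicate 1 (adjusted p up to 0.115). B3galt1, B3gnt2, B3gnt4, B3gnt8 and B4galt7 were not called.

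N-glycan branching had 3 of 10 genes higher (30.0%, beside 28.9% of all genes), 0 lower (beside 27.5%) and a median difference of 0.10. Mgat4c read 5.88 to 7.5 before weaning, 7.91, 8.88 and 8.16 at day 24 and 9.16, 9.72 and 9.31 at day 32, a rise of 2.14 ± 0.19 (SE; limma, adjusted p = 9.4e-09). Its step of 1.08 ± 0.30 (SE) from day 24 to day 32 (limma, adjusted p = 0.0389) lost the call under 14 alternatives, with any array of day 32 or replicate 1 or 3 of day 24 left out among them (0.88 to 1.36, adjusted p up to 0.154). Mgat4b, which adds a β1,4 branch, rose by 0.79 ± 0.07 (SE) and Mgat3, which adds the bisecting sugar, by 0.52 ± 0.08 (SE). Mgat1 and Mgat2, the enzymes that open the way to complex N-glycans, differed by -0.04 (95% interval -0.21 to 0.13) and 0.08 (95% interval -0.12 to 0.27). Mgat4a gave 0.03 (95% interval -0.11 to 0.17) on its brighter probe set and 0.86 on the dimmer, and the mean of both was called at 0.45 (limma, adjusted p = 0.00078).

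**Figure D4:**
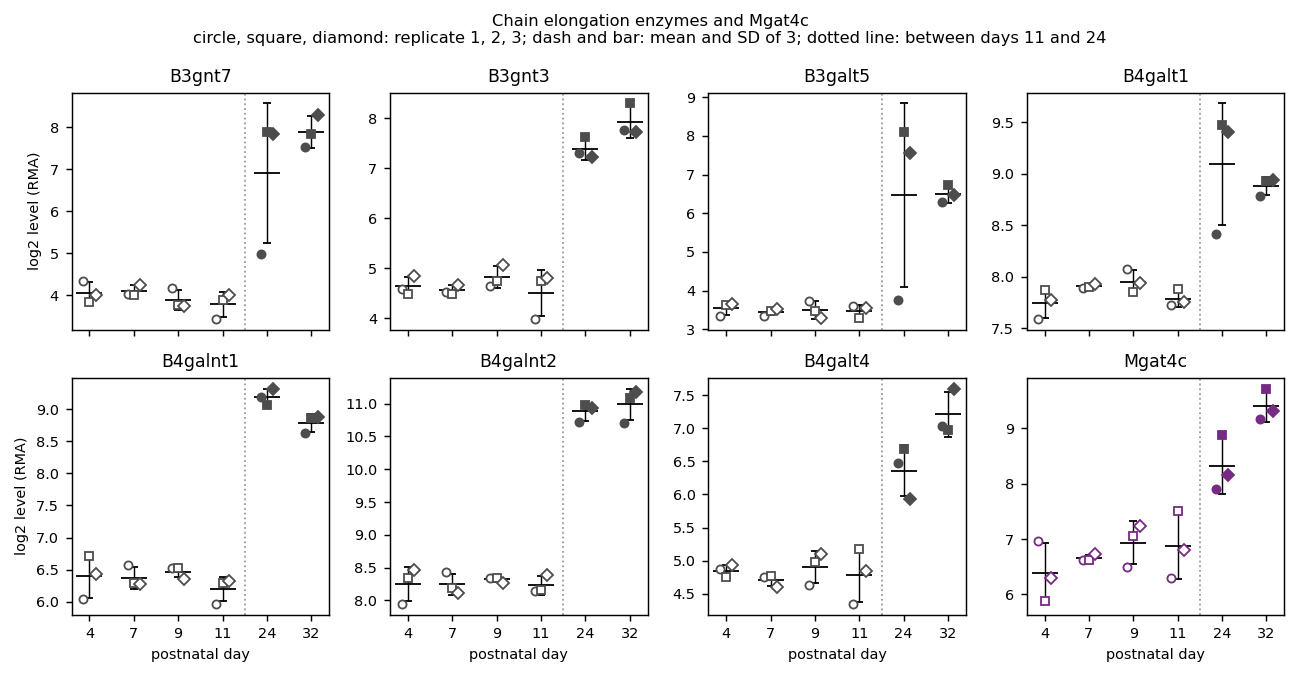
Log2 level of 7 chain elongation enzymes and Mgat4c against postnatal day, drawn as single mice with the mean and SD of 3, each panel with its own range. B3gnt3, B4galnt1 and B4galnt2 separate evenly, while for B3gnt7, B3galt5 and B4galt1 the circle of day 24 (replicate 1) lies below the other mice after weaning.

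One mouse recurred. Among the 36 genes that rose, day 24 replicate 1 was the after-weaning array nearest to the suckling level for 16, against 0 to 9 for each of the other 5 arrays. By another measure it stood out less. It lay inside the suckling range for 7 of the 36, as did day 32 replicate 1, and the others did so for 3 to 6. Among the 18 genes that fell, day 24 replicate 1 was nearest for 5, against 1 to 4 for the others. Its values for Fut4, Fut8, B3gnt3, B4galnt1 and B4galnt2 lay with those of the other mice after weaning. Leaving out any 1 of the 18 arrays gave 36 to 38 genes higher. The spread over the 3 mice of day 24 was 4.34 for B3galt5, 2.91 for B3gnt7, 2.41 for Fut2 and 2.0 for Gcnt1, beside a median of 0.38 over the 82 genes.

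**Figure D5:**
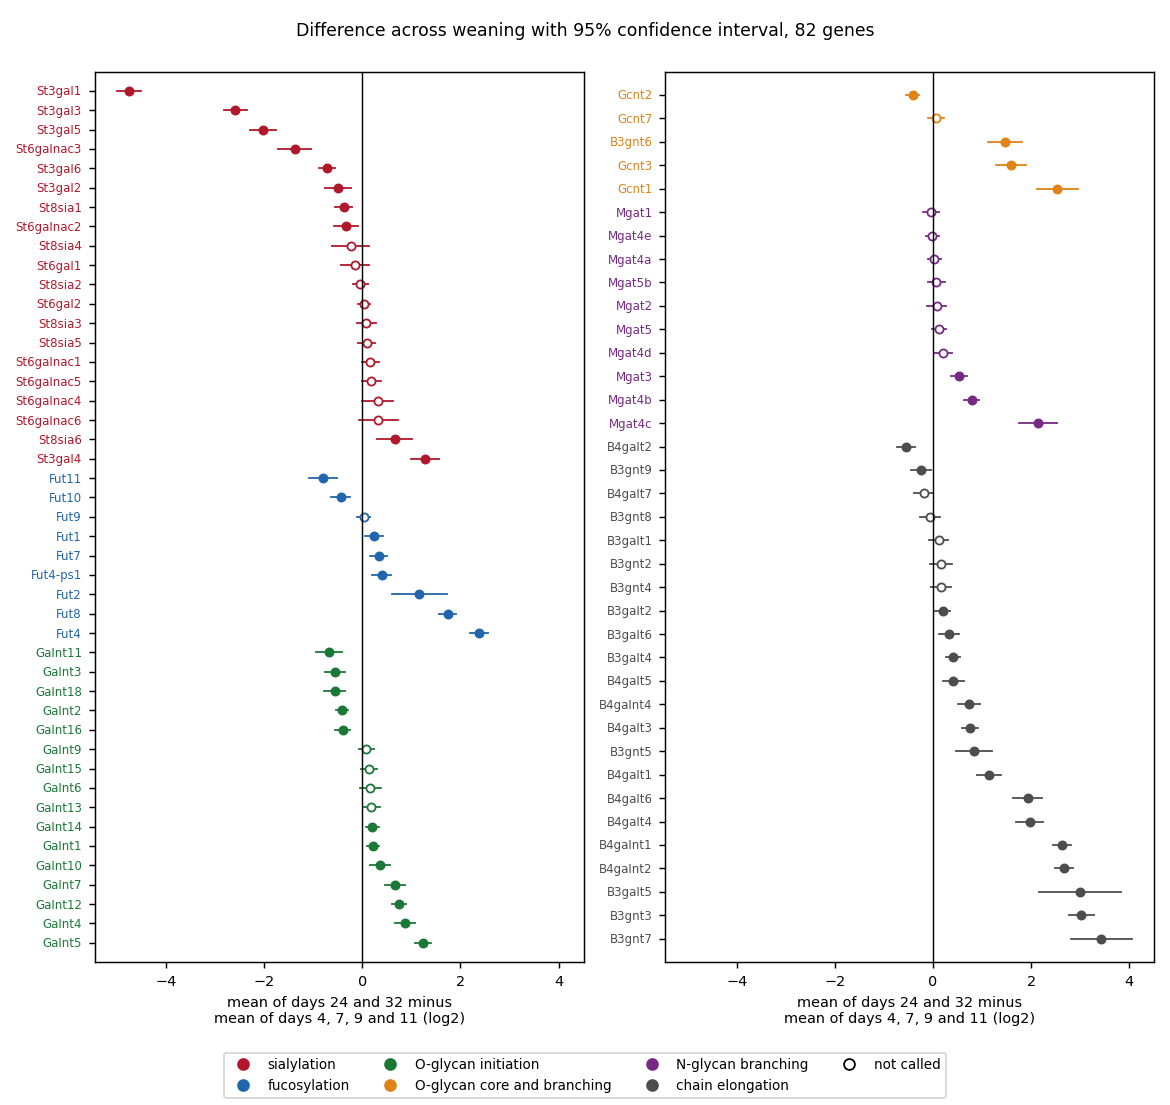
Difference between the mean of days 24 and 32 and the mean of days 4, 7, 9 and 11 for each of the 82 genes (log2), with its 95% confidence interval from the fit; filled points are called, open points are not, and colours mark the enzymatic step. Sialylation runs from -4.76 (St3gal1) to 1.28 (St3gal4) and chain elongation from -0.55 (B4galt2) to 3.43 (B3gnt7).

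The sugar donors and the enzymes that remove the same sugars were read from lists of pathway genes. Their counts stand beside 28.9% of all genes that rose and 27.5% that fell. For sialic acid, 3 of 7 genes rose and 3 fell. Gne and Nans, which act in making sialic acid, rose by 0.70 and 0.63, and Cmas rose by 0.17. Nanp, another enzyme of that synthesis, fell by 0.48. Slc35a1, the carrier of CMP-sialic acid into the Golgi, fell by 0.52. Npl, the lyase that breaks sialic acid down, fell furthest. It read 11.84 to 12.3 before weaning, 8.59, 8.34 and 7.45 at day 24 and 4.88, 4.6 and 4.72 at day 32. The difference was -5.71 ± 0.12 (SE), 52.2-fold lower (limma, adjusted p = 9.23e-18), and the step from day 24 to day 32 alone was -3.39 ± 0.20 (SE).

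For GDP-fucose, 4 of 6 genes rose and 1 fell, again beside 28.9% and 27.5% of all genes. Gmds, which makes the precursor of GDP-fucose, rose by 2.17 ± 0.13 (SE), from 8.2 to 8.81 before weaning to 9.86, 10.92 and 11.0 at day 24 and 10.85, 11.33 and 11.14 at day 32. Slc35c1, the GDP-fucose carrier, rose by 1.22 and Slc35c2 fell by 1.06. For the donors of galactose and the N-acetylated hexosamines, 6 of 9 genes rose and 2 fell, led by Uap1 (2.46), Gnpnat1 (1.62) and Gfpt1 (1.32). On the way to UDP-N-acetylglucosamine Gfpt1 acts first, then Gnpnat1, then Pgm3, which was not called (0.07; limma, adjusted p = 0.597), and Uap1 last. Galt, which acts on galactose from milk lactose, fell by 1.01.

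Of the sialidases, fucosidases and the sialate esterase, 5 of 6 fell and 1, Neu3, with a level at or below the array medians, rose, beside 27.5% and 28.9% of all genes that fell and rose. Fuca2, Fuca1 and Neu1 fell by 2.36, 2.00 and 1.66, with standard errors of 0.06, 0.10 and 0.07. The lysosomal fucosidase Fuca1 read 12.09 to 12.6 before weaning and 9.91 to 10.58 after. Among other transferases, 3 of 7 rose and 4 fell. C1galt1, the core 1 enzyme, rose by 0.63 and C1galt1c1 by 0.39, while Pofut1 and Pofut2, which place fucose directly on protein, fell by 1.94 and 1.06. Of 7 mucin genes, which encode carriers of these O-glycans, 6 rose and 0 fell. Muc3 rose by 2.46 ± 0.07 (SE) and Muc4 by 2.51 ± 0.12 (SE), and Muc2, the secreted goblet cell mucin, by 0.86 ± 0.09 (SE). Before weaning Muc3 read 9.31 to 10.28, while Muc4 read 3.12 to 3.64, below the array medians. The rises of Muc1 (0.20) and Muc5ac (0.36) were small and at levels near the array medians. Muc2 stood at 10.86 to 11.45 before weaning, 11.54 to 11.59 at day 24 and 12.34 to 12.86 at day 32, a step of 1.00 ± 0.14 (SE) between the last 2 ages.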

How the data were processed

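Ileum RNA of 18 mice was measured on Affymetrix arrays, 1 per mouse. The samples that share an animal number are day 7 replicate 3 and day 9 replicate 2, with Xist levels of 4.69 and 9.74. The deposited values are log2 levels, 1 per probe set and array. RMA is named in the submitters' processing notes as the authors' method. Its version, the array model and any scan date were not given in the sources used here. RMA brings arrays to a common distribution, so that a shift shared by most genes would not be seen. The table held 45101 probe sets, 64 of them controls. The platform annotation listed 35890 of them, 34958 with 1 symbol and 932 with several, which were left out. The 9211 others are unnamed here.

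The probe set brightest on average stood for its gene (the 82 members had 173 probe sets, and 29 had 1). limma 3.58.1 in R 4.3.3 (lmFit, eBayes) was fitted to all 18194 genes with age as a factor of 6 levels, which left 12 residual degrees of freedom and a median residual SD of 0.168. Comparisons were an F test, the older stage (days 24 and 32) against the suckling stage (days 4, 7, 9 and 11), each stage as the average of its ages, and 3 steps between ages. Weaning was placed between days 11 and 24 from general knowledge of mice. The members, classes, pathway and marker lists and motifs were chosen with earlier results of these data known. Named were, per class, up to 4 called rises and 4 called falls with separate groups, up to 4 each way in the steps, a fixed set of members whatever their values, and up to 3 pathway genes per list and direction. Other members are named for a full account. Replicate numbers follow accession order and pair nothing. Alternatives were 2 filters, the mean of probe sets, 3 normalizations, 3 settings of the spread, hybridization groups, Xist, fewer ages, 1.5-fold and each array left out. The fit was tested on simulated data. Sequences came from RefSeq tables of GRCm38.p6. Python 3.11.15, pandas 2.3.3 and matplotlib 3.10.9 were used.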

Additional observations from a re-analysis of the deposited data

How the results depend on the processing

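No gene called between stages changed direction under any alternative run; of the uncalled ones St6gal1 (0.02) and Mgat4a (-0.01) were among those that crossed 0. The step of Galnt7 from day 11 to day 24 (0.48) turned to -0.43 with the mean of probe sets. The count of genes called over the 6 ages stayed at 34 to 53. A filter on a mean of log2 5 left 23 genes higher and 11 lower between stages, a filter on log2 6 reached on 3 arrays left 10 lower, and a minimum of 1.5-fold left 7 lower. By step, the log2 6 filter gave 6 sialylation, 2 fucosylation and 11 elongation genes, the mean filter 6 sialylation, 2 fucosylation and 2 core genes, and the 1.5-fold minimum 4 fucosylation, 5 initiation and 11 elongation genes; filters test fewer members. The mean of probe sets gave 6 N-glycan branching genes and median centring 5. The arrays with higher hybridization controls, none of day 9, gave 5 fucosylation genes. From day 4 to day 11 the genes higher were 0 with the mean of probe sets, on the higher-control arrays and with those ages alone, and 0 to 1 with an array left out. From day 11 to day 24 the higher-control arrays gave 6 lower. From day 24 to day 32 the genes higher were 8 with the mean of probe sets, 2 on the higher-control arrays, 1 with those ages alone and 2 to 6 with an array left out. The genes lower in that step were 2 with the mean filter, 3 with array weights, 0 under the mean of probe sets, the higher-control arrays, Xist, those ages alone and 1.5-fold, and 0 to 4 with an array left out. The causes were not tested. A fit of the compared ages alone exists for the steps only. No paired analysis was possible because replicate numbers follow accession order only.

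In simulated data, 24.5% of genes changed by 0.5 and 88% of those changed by 1 (log2) were recovered for day 11 minus day 4, so that small changes within suckling would mostly be missed. RMA values carry no detection calls, and folds from levels near the array medians depend on the background correction.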
